A study of Mus musculus with 2 samples.

Results

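The matrix metalloproteinase (MMP) genes Mmp8, Mmp9, Mmp12, Mmp13, Mmp14 and Mmp19 and the tissue inhibitor of metalloproteinases (TIMP) genes Timp1, Timp2 and Timp3 were described in LPS-stimulated macrophages with and without tristetraprolin (TTP). These 9 genes were taken by their symbols from the 37451 genes of the deposited table, and all 9 were found. The series comprised 1 RNA-Seq library of WT and 1 library of ΔM bone marrow-derived macrophages (BMDMs), grown from bone marrow of 7- to 9-week-old C57BL/6 mice with CSF-1 from L929 cells. ΔM cells carried the genotype TTP fl/fl LysMCre, in which Cre made from the lysozyme M locus deletes the TTP gene Zfp36 in myeloid cells, and WT cells came from littermates. Both cultures received 100 μM 4-thiouridine for 16 h and then 10 ng/ml LPS for 6 h, so the libraries hold no unstimulated or unlabeled cells. How many mice gave each library is not given in the sources used here. With 1 library per genotype, a difference between WT and ΔM has no replicate check, and no test or p-value was calculated.

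MMPs are zinc-dependent endopeptidases that cut collagens, elastin and other proteins of the extracellular matrix, and they also process cytokines and cell surface proteins. Most are secreted as inactive proenzymes, and TIMPs bind the active enzymes and block them. Macrophages make several MMPs and TIMPs when they enter and remodel inflamed tissue. TTP is an RNA-binding protein that recognizes AU-rich elements, commonly built from the pentamer ATTTA (with U for T in the RNA), in the 3′ untranslated regions (UTRs) of mRNAs and recruits the deadenylation machinery to them.

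The pentamer was searched for in the annotated 3′ UTR of each gene. The study's site list, of which a shortened copy was used, holds sites in the 3′ UTR of Mmp13. Of the 9 sites that could be read, all in exon 10 of 10 of the annotated transcript (mm9, plus strand), 3 contain the pentamer and 6 do not. The 6 without it are 2 to 5 nt long and shorter than each of the 3 with it, which are shown here. Those 3 lie at chr9:7282130-7282141, chr9:7282410-7282438 and chr9:7282460-7282476. They are shown in this order with the pentamer in capitals.
Mmp13 site a: agttgttATTTA
Mmp13 site b: catgcataattattaatatATTTAtttta
Mmp13 site c: taaatcatATTTAtata
The copy of the list is incomplete, so no statement on sites in the other members was drawn from it.

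Pentamers of other members are shown for comparison, with their surroundings and with no knowledge of binding. Mmp9 has the densest set, in exon 13 of 13, at chr2:164780798-164780818, chr2:164780833-164780853, chr2:164780982-164781002 and chr2:164781331-164781350. From Mmp12, exon 10 of 10, the first window (chr9:7358368-7358388) and the last (chr9:7360347-7360374) are shown. Mmp19 holds a single pentamer, in exon 9 of 9, at chr10:128236552-128236572. All are on the plus strand of mm9.
Mmp9 window a: gcccttttATTTAttatgtat
Mmp9 window b: atgcatgtATTTAacccacag
Mmp9 window c: catcaaacATTTAttgagagc
Mmp9 window d: aatgaatATTTActtATTTA
Mmp12 window a: ataagtatATTTAttacatat
Mmp12 window b: attATTTAtattaaagtgttATTTAgct
Mmp19 window a: ttttttagATTTAaggcatgt

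The 9 genes fell into a set with 5 to 8 pentamers and a set with 1 or none. Timp3 had 8 pentamers in a 3′ UTR of 3604 nt, Mmp12 had 6 in 2134 nt, Mmp13 had 6 in 1215 nt and Mmp9 had 5 in 944 nt. Per kilobase of 3′ UTR this gave 5.30 for Mmp9, 4.94 for Mmp13, 2.81 for Mmp12 and 2.22 for Timp3, against 1.83 over 19999 protein-coding genes with an annotated 3′ UTR. Among genes whose 3′ UTR had a length within 10% of theirs, 5.2% held at least as many pentamers as Mmp9, 8.9% as many as Mmp13, 22.5% as many as Mmp12 and 33.3% as many as Timp3. The longer form TATTTAT, which contains the pentamer, was found 4 times in Mmp13, 3 times in Mmp12, 2 times in Timp3 and 1 time in Mmp9. At least 1 was held by 22.4% of the 19999 genes. Among genes of like 3′ UTR length the share was 31.1% for Mmp13, 40.3% for Mmp12, 60.7% for Timp3 and 21.0% for Mmp9. The still longer TTATTTATT was found 1 time in Mmp9, where 5.4% of genes of like length held it, and in no other member.

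Mmp19 had 1 pentamer in 1724 nt, and Mmp8 (948 nt), Mmp14 (586 nt), Timp1 (103 nt) and Timp2 (2630 nt) had 0. A pentamer was present in 58.3% of the 19999 genes, whose median 3′ UTR was 711 nt. Of the genes with a 3′ UTR as long as that of Timp2, 95.5% held a pentamer, so Timp2 stood with the few that did not. For Timp1, with its 103 nt, only 16.3% of genes of like length held one. Only the sense strand was searched, and a match is a description of the letters.

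**Figure D1:**
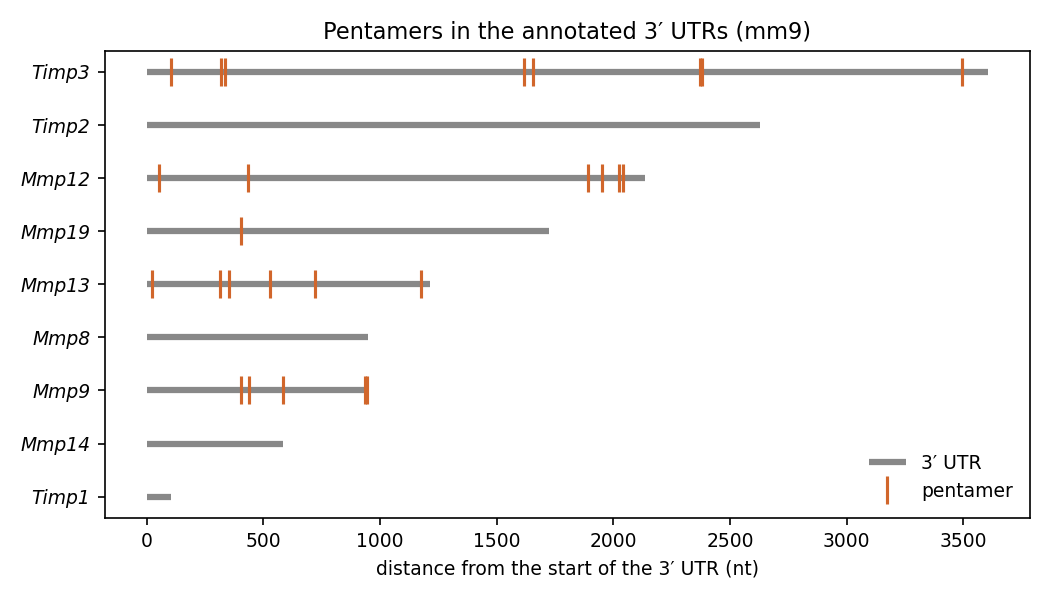
Pentamers (ATTTA, orange ticks) in the annotated 3′ UTR of each gene (grey bars, ordered by length), plotted by distance from the start of the 3′ UTR in nt. Timp3, Mmp12, Mmp13 and Mmp9 carry 5 to 8 pentamers, Mmp19 carries 1, and Mmp8, Mmp14, Timp1 and Timp2 carry 0.

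The libraries were checked before the 9 genes were read. Levels are FPKM, fragment numbers divided by exon length and by the size of the library, which puts genes of unlike length on one scale. From the steps between low FPKMs, WT came to about 36000000 fragments and ΔM to 32200000. Intervals below are 95% intervals from the resulting fragment numbers and cover counting error only. They leave out errors in transcript length and in the assignment of fragments, which also bear on a comparison between genes. In WT, Zfp36 was at 65.3 FPKM (63.2 to 67.4), and in ΔM at 16.7 FPKM (15.6 to 17.9), which goes with the labels. All 9 macrophage markers found were above 1 FPKM in both libraries, with Cd68 at 387.6 and 389.6 FPKM and Emr1 (F4/80) at 379.9 and 357.1 FPKM. Lyz2, the lysozyme M gene whose locus carries the Cre, was at 2481 (WT) and 1356 FPKM (ΔM). All 10 fibroblast and stromal markers were at or below 0.48 FPKM, all 6 dendritic cell markers at or below 0.36 FPKM and all 6 lymphocyte markers at or below 0.05 FPKM. Of 12 neutrophil markers, 7 were listed at 0 in both libraries, among them Elane, Ly6g and S100a9, and S100a8, at 50.7 (WT) and 100.0 FPKM (ΔM), was the 1 above 0.41 FPKM. In such cultures, fewer cells that make an mRNA and less of it per cell cannot be told apart.

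The macrophage elastase gene Mmp12 and the collagenase 3 gene Mmp13 were the most abundant of the 9 mRNAs in both genotypes. Timp1 came after them, and Timp2 and Mmp14, which encodes a membrane-anchored MMP, followed. Mmp8, Mmp9, Mmp19 and Timp3 were at 5.55 FPKM or less in each library. The levels thus spread from the top few percent of protein-coding genes down to the level of single fragments.

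In WT, Mmp12 stood at 159 FPKM (155 to 163) and Mmp13 at 141 FPKM (138 to 143), above 99.0% and 98.8% of protein-coding genes. Timp1 was at 70.0 FPKM (66.7 to 73.4), 2.01-fold under Mmp13. Timp2 was at 29.9 FPKM (28.7 to 31.2) and Mmp14 at 26.4 FPKM (25.3 to 27.5), a difference of 1.13-fold. A gap of 6.70-fold separated Mmp14 from Mmp8, at 3.94 FPKM (3.52 to 4.40). Mmp19 was at 2.71 FPKM (2.42 to 3.03), Mmp9 at 1.01 FPKM (0.632 to 1.53) and Timp3 at 0.30 FPKM (0.183 to 0.465). No 2 neighbors in this order had overlapping counting intervals, but counting error alone does not settle the order of close levels such as Timp2 and Mmp14.

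In ΔM the first 5 kept their order. Mmp12 was at 121 FPKM (117 to 124), Mmp13 at 114 FPKM (111 to 116) and Timp1 at 64.1 FPKM (60.7 to 67.6). The intervals of Timp2, at 33.0 FPKM (31.6 to 34.4), and Mmp14, at 30.7 FPKM (29.5 to 32.0), overlapped, so these neighbors could not be ordered. Mmp19 and Mmp8 changed places. Mmp19 was at 5.55 FPKM (5.11 to 6.02) and Mmp8 at 3.74 FPKM (3.31 to 4.21), while Mmp9 was at 1.84 FPKM (1.28 to 2.55) and Timp3 at 0.02 FPKM (0.000811 to 0.0999).

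**Figure D2:**
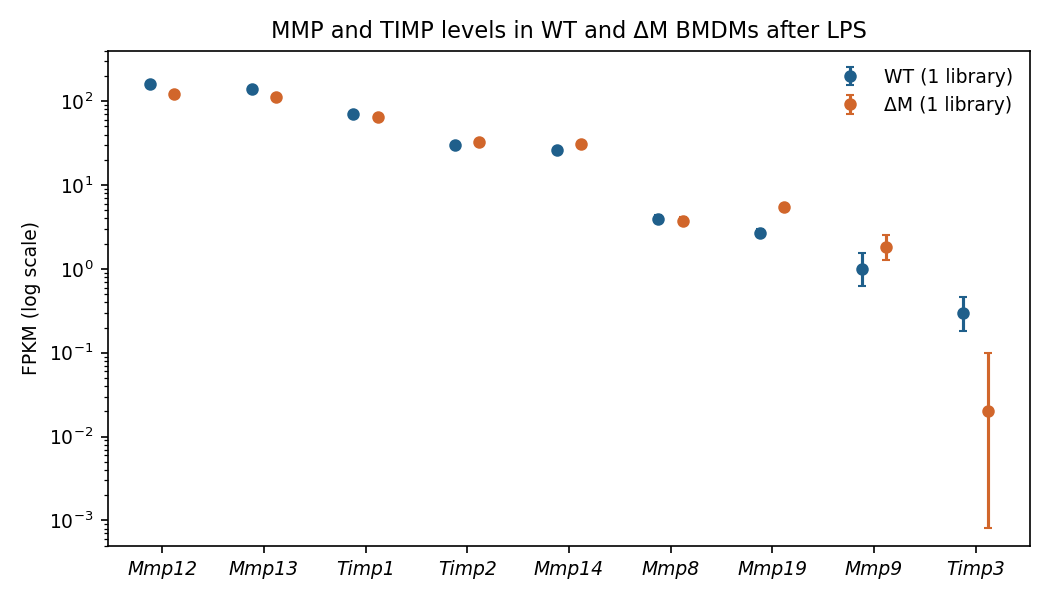
FPKM (log scale) of the 9 genes in WT (blue) and ΔM (orange), 1 library each, ordered by the WT level, with 95% counting intervals as bars where they are wider than the points. Mmp12 and Mmp13 lie above 100 FPKM in both libraries, and Timp3 is the lowest in both, at 0.30 (WT) and 0.02 FPKM (ΔM).

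The comparison of ΔM with WT asked how the MMP and TIMP mRNAs stood after 6 h of LPS when TTP was missing. Mmp19 was higher in ΔM, Mmp12 and Mmp13 were lower, and Mmp8, Mmp14, Timp1 and Timp2 lay within 1.2-fold of WT. Mmp9 was higher in ΔM on few fragments. Ratios are given as ΔM over WT, and log2 ratios were taken after adding 1 FPKM to both values, which understates the change of low genes.

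None of the 8 genes that reached a mean of 1 FPKM was 2-fold or more apart after adding 1 FPKM. Among all 10765 genes with such a mean, 5.69% were at least 2-fold higher in ΔM and 3.61% at least 2-fold lower. Among the 8078 of them that are protein-coding, the shares were 1.19% and 1.32%. At 1.5-fold, a limit chosen after the ratios were seen, Mmp19 alone was higher and 0 were lower, against 4.82% and 5.36% of the protein-coding genes. With shares this small, a count of 0 or 1 among 8 genes is near the background. The log2 ratio was above 0 for 4 of the 8 and below 0 for 4, with a median of 0.04, whose sign turned with the minimum level (-0.06 with no minimum and -0.125 with a minimum mean of 10 FPKM). It stood beside a median of 0.00 over the protein-coding genes and of 0.03 over all genes tested.

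**Figure D3:**
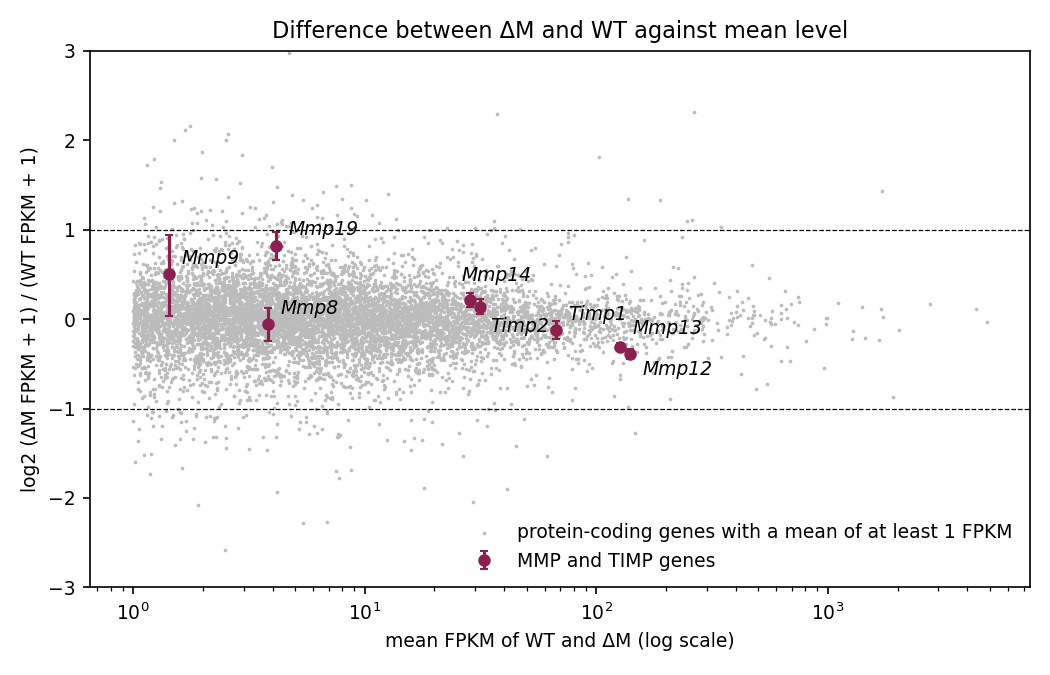
Log2 ratio of ΔM to WT after adding 1 FPKM against the mean FPKM (log scale), for protein-coding genes (grey) and 8 MMP and TIMP genes (all with means from 1 FPKM up) (purple, bars are 95% counting intervals). Mmp19 lies highest of the 8 at 0.82, Mmp12 and Mmp13 lie lowest at -0.39 and -0.31, none passes the dashed lines of 2-fold, and 10 protein-coding genes lie beyond the plotted range.

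Mmp19 (ENSMUSG00000025355, chromosome 10, 128228009 to 128237880, plus strand, mm9) encodes a secreted MMP found in many tissues. Its level in ΔM was 2.05-fold that in WT (1.78 to 2.36), on about 314 WT and 575 ΔM fragments. The log2 ratio was 0.82 (0.66 to 0.98), and 2.08% of the protein-coding genes tested had a higher one. Its exons overlap those of Tmem198b on the other strand, which was at 1.25 (WT) and 1.58 FPKM (ΔM). Whether fragments were assigned by strand is not given in the sources used here, so the value of Mmp19 is uncertain to that extent.

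Mmp9 (ENSMUSG00000017737, chromosome 2, 164766280 to 164781350, plus strand) encodes gelatinase B, which cuts denatured collagen and type IV collagen. Its level in ΔM was 1.82-fold that in WT, with an interval of 1.04 to 3.26 from about 21.8 and 35.5 fragments. These numbers were computed for the median length of its 4 annotated transcripts. With the longest transcript they became 108 and 177 fragments and the interval 1.43 to 2.34. The log2 ratio was 0.50 (0.03 to 0.94), and 6.91% of the protein-coding genes had a higher one.

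Mmp12 (ENSMUSG00000049723, chromosome 9, 7344381 to 7369499, plus strand) and Mmp13 (ENSMUSG00000050578, chromosome 9, 7272514 to 7283333, plus strand) moved alike in size and direction. For Mmp12, ΔM held 0.761 of the WT level (0.734 to 0.789), a log2 ratio of -0.39 (-0.44 to -0.34). For Mmp13 it held 0.806 (0.785 to 0.828), a log2 ratio of -0.31 (-0.35 to -0.27). These are the best counted of the 9 genes, with about 7198 and 4891 fragments for Mmp12 and 12590 and 9068 for Mmp13, so the counting intervals are narrow. With the longest of its 7 transcripts, Mmp12 came to about 24480 and 16650 fragments and the interval to 0.746 to 0.776. Their differences are common in size, since 11.2% and 15.6% of the protein-coding genes had a lower ratio. The exons of Mmp12 overlap those of Mmp1b on the other strand, which was listed at 0 in both libraries.

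Mmp8 (ENSMUSG00000005800, chromosome 9, 7558429 to 7568486, plus strand) encodes a collagenase first known from neutrophils. Its ratio of 0.949 had an interval of 0.805 to 1.12, so a difference was not detectable at this depth. Mmp14 (ENSMUSG00000000957, chromosome 14, 55050441 to 55060095, plus strand) encodes MT1-MMP, a transmembrane enzyme that cuts collagen at the cell surface and activates pro-MMP2. Its level was 1.16-fold higher in ΔM (1.10 to 1.23), a log2 ratio of 0.21 (0.13 to 0.29), and 22.3% of the protein-coding genes had a higher one. Mmp2, named here after its values were seen, was at 0.07 (WT) and 0.06 FPKM (ΔM).

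Timp1 and Timp2 differed less between the libraries than 5 of the 6 MMP genes, Mmp8 being the exception. Timp1 (ENSMUSG00000001131, chromosome X, 20447292 to 20451861, plus strand), a secreted inhibitor that also binds pro-MMP9, had a ratio of 0.916 (0.852 to 0.984) and a log2 ratio of -0.13 (-0.23 to -0.02). Timp2 (ENSMUSG00000017466, chromosome 11, 118162383 to 118217054, minus strand), which inhibits MMPs and takes part with MMP14 in the activation of pro-MMP2, had a ratio of 1.10 (1.04 to 1.17) and a log2 ratio of 0.14 (0.05 to 0.22). A lower ratio than that of Timp1 was seen for 32.6% of the protein-coding genes and a higher one than that of Timp2 for 29.7%, so both lay in the middle of the distribution.

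Timp3 (ENSMUSG00000020044, chromosome 10, 85763117 to 85812251, plus strand) encodes the inhibitor that binds to the matrix and also blocks ADAM17. WT held about 19.7 fragments and ΔM 1.18. The ratio was 0.0667 with an interval of 0.00256 to 0.375. With the longest of its 4 transcripts the interval was 0.0129 to 0.209. After adding 1 FPKM the log2 ratio was -0.35. Its mean lay under 1 FPKM, and it was left out of the counts and the median above. The 10 stromal markers listed were all at low levels. Col3a1 and Pdgfrb were lower in ΔM too, with ratios of 0.30 (0.14 to 0.60) and 0.48 (0.28 to 0.81). They were the only ones of these markers with a ratio interval that leaves out 1. Acta2 was higher, with a ratio of 1.85, but its interval (0.93 to 3.79) includes 1. The part of stromal cells in the value of Timp3 was not tested. The exons of Timp3 overlap those of Syn3 on the other strand, at 0.01 FPKM in both libraries.

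Set beside the letters of the 3′ UTRs, the ratios had no common direction. Mmp12 and Mmp13, with 6 pentamers each, were lower in ΔM, and Mmp9, with 5, was higher. Timp3, with 8, was lower on few fragments. Mmp19, whose ratio was the highest, had 1 pentamer, and the 4 genes without any had log2 ratios between -0.13 and 0.21.

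The summed level of the 6 MMP genes was 334 (WT) and 276 FPKM (ΔM), and that of the 3 TIMP genes was 100.2 FPKM and 97.1 FPKM. The MMP sum was thus 3.33 times the TIMP sum in WT (3.20 to 3.46) and 2.84 times in ΔM (2.73 to 2.96), which is 85.4% of the WT value. Mmp12 and Mmp13 made up 89.8% of the MMP sum in WT and 84.9% in ΔM, so the quotient follows these genes. Timp1 made up 69.9% and 66.0% of the TIMP sum. Without Mmp12 the quotient was 1.75 in WT and 1.60 in ΔM. These are mRNA levels and not amounts of protein or activity.

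Mmp8, Mmp12 and Mmp13 lie in a cluster of MMP genes on chromosome 9. It holds 10 Mmp genes between 7272514 and 7699585, a span of 427 kb. By position from the lowest coordinate, these are Mmp13, Mmp12, Mmp1b, Mmp3, Mmp1a, Mmp10, Mmp8, Mmp27, Mmp20 and Mmp7. Mmp13, Mmp12, Mmp8 and Mmp27 reached 1 FPKM in at least 1 library, and Mmp1b, Mmp1a and Mmp7 were listed at 0 in both. Neighbors therefore differed widely in level. Mmp13 and Mmp12, at one end, were over 100 FPKM, and Mmp3, 2 places beyond Mmp12, was at 0.02 FPKM in each library.

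The 17 other MMP genes listed were low. Of these, 15 had a mean under 1 FPKM, with no value above 0.74 FPKM, and 4 were listed at 0 in both libraries. Mmp25, a membrane-anchored MMP known from leukocytes, was at 1.58 (WT) and 1.35 FPKM (ΔM), and Mmp27 was at 1.08 and 1.57 FPKM with a ratio of 1.45 (1.02 to 2.09). Mmp10 (stromelysin 2), next in level, was at 0.23 and 0.74 FPKM, a ratio of 3.22 (1.66 to 6.67) on low counts. Neither Mmp25 nor Mmp27 was 2-fold apart. The 5 genes listed as other inhibitors of MMPs were at or below 0.25 FPKM. Pcolce was at 0.25 (WT) and 0.11 FPKM (ΔM), and Tfpi2 at 0.02 FPKM in each. Reck was at 0.20 and 0.06 FPKM, a ratio of 0.30 (0.12 to 0.66) on low counts.

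The ADAM and ADAMTS families were described in the same way. Many of these proteins share the zinc-binding catalytic domain with MMPs, and some are held back by TIMPs. Of 12 ADAM genes, 5 reached a mean of 1 FPKM, 3 with a ratio above 0 and 2 below on the log2 scale, and 0 were 2-fold apart. Adam8, an ADAM of myeloid cells, was the highest, at 226.5 (WT) and 259.7 FPKM (ΔM). Adam17, the TNF-converting enzyme, was at 156 and 97.8 FPKM, a ratio of 0.626 (0.607 to 0.646). It was the 1 ADAM at least 1.5-fold lower in ΔM after adding 1 FPKM, beside 5.36% of the protein-coding genes tested. Adam15 was at 35.2 and 26.1 FPKM.

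Of 19 ADAMTS genes, which encode secreted proteases of the matrix, 2 had a mean of at least 1 FPKM, and both were higher in ΔM. Both were under 1 FPKM in WT and reached this mean only through their ΔM values, so their shared direction carries no call. Adamts4, which cuts aggrecan and versican, was at 0.86 (WT) and 2.92 FPKM (ΔM), a ratio of 3.40 (2.78 to 4.17). Its log2 ratio of 1.08 made it the 1 gene of the 6 lists of proteases, inhibitors, partners and matrix proteins at least 2-fold apart. For the reason just given, this carries no call either. Of the protein-coding genes tested, 1.19% were at least 2-fold higher in ΔM and 1.32% at least 2-fold lower. Adamts10 was at 0.55 and 1.58 FPKM, a log2 ratio of 0.74. The next in level, Adamts17, was at 0.39 (WT) and 0.02 FPKM (ΔM).

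Among 14 activators and partners of MMPs, 9 had a mean of at least 1 FPKM, 6 with a log2 ratio above 0 and 3 below, with a median of 0.08. None was 2-fold apart and 2 were at least 1.5-fold lower, as were 5.36% of the protein-coding genes tested. Lcn2, lipocalin 2, which forms a complex with MMP9, was at 183 (WT) and 91.9 FPKM (ΔM), a log2 ratio of -0.98. The other was Itgav, the integrin αV gene, named after its values were seen, at 24.9 and 14.0 FPKM. Cd44, a docking receptor for MMP9, was at 118 and 125.5 FPKM, and Bsg (CD147), which induces MMPs in neighboring cells, was at 51.3 and 52.8 FPKM.

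Matrix proteins on which these proteases act were mostly at low levels in the BMDMs. Of 20 genes, 16 had a mean under 1 FPKM, including the collagens listed. Spp1 (osteopontin) was at 569 (WT) and 557 FPKM (ΔM), and Vcan (versican) at 130.5 and 147 FPKM. Thbs1 (thrombospondin 1) was at 6.19 and 3.72 FPKM, a log2 ratio of -0.61. It was the 1 matrix gene at least 1.5-fold lower, beside 5.36% of the protein-coding genes tested. None was 2-fold apart.

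**Figure D4:**
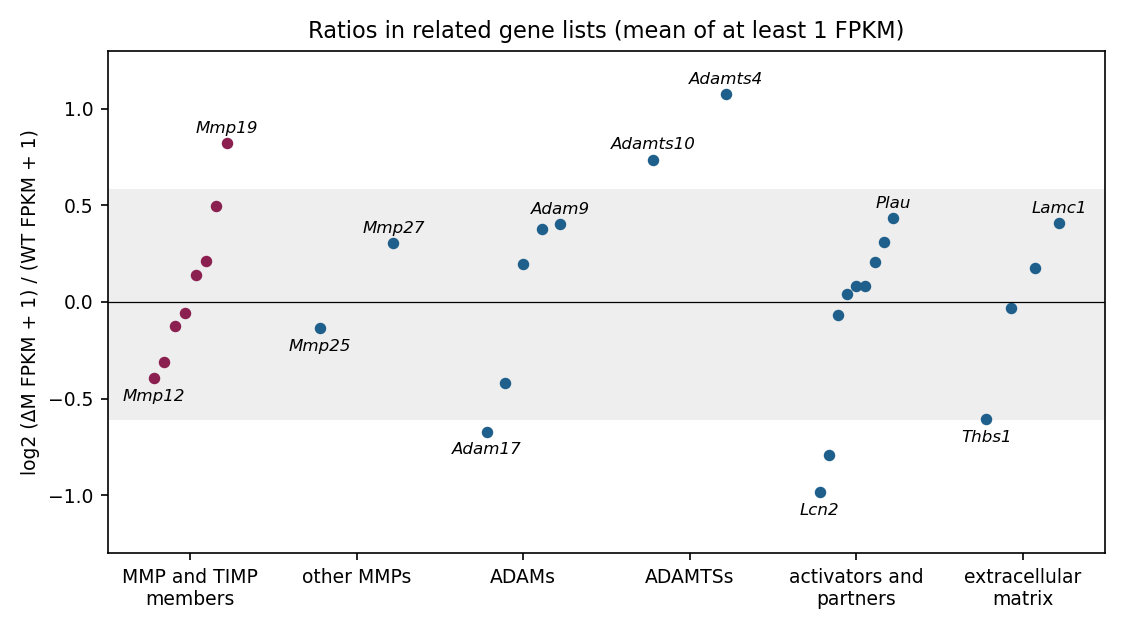
Log2 ratio of ΔM to WT after adding 1 FPKM for the members (purple) and 5 related gene lists (blue), each point 1 gene that reached a mean of 1 FPKM, with the lowest and highest gene of each list named and the grey band spanning the 5th to the 95th percentile of protein-coding genes (-0.60 to 0.58). Mmp19 and the 2 ADAMTS genes lie above the band, and Adam17, Lcn2, Itgav and Thbs1 lie below it.

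Markers of other cell types that differed between the libraries were set beside these ratios. The summed level of the 12 neutrophil markers was 50.8 (WT) and 101 FPKM (ΔM), almost all of it S100a8, with the defining markers Elane, Ly6g and Cxcr2 listed at 0 in both. S100a9, whose protein pairs with that of S100a8, was also listed at 0 in both, so a value of 0 says here only how a gene is listed. Other neutrophil markers differed on few fragments. Camp was at 0 (WT) and 0.41 FPKM (ΔM) and Prtn3 at 0 and 0.15 FPKM, whereas Mpo was at 0.09 and 0.05 FPKM. The sum of the 10 fibroblast and stromal markers was 1.23 and 1.10 FPKM, but single markers differed between the libraries. Col3a1 was at 0.30 and 0.09 FPKM and Pdgfrb at 0.27 and 0.13 FPKM, lower in ΔM as Timp3 was. Acta2 was at 0.26 and 0.48 FPKM, with a ratio interval (0.93 to 3.79) that includes 1. Mrc1, a macrophage marker of alternatively activated cells, was at 5.45 (WT) and 11.6 FPKM (ΔM), a log2 ratio of 0.96. The part of these differences in the ratios of the MMP and TIMP genes was not tested. The markers Elane, Ly6g, Cxcr2, S100a9, Camp, Prtn3, Mpo, Col3a1, Pdgfrb, Acta2 and Mrc1 were named after their values were seen.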

How the data were processed

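The deposited values are FPKM, 1 per Ensembl gene and library. The authors depleted rRNA, sequenced size-selected cDNA in pairs, trimmed adaptors, aligned to mm9 by Segemehl, retained unique hits and calculated FPKM with Cufflinks. The table keeps no fragment numbers, and 1 ΔM value has no number. Fragment numbers were estimated from the steps of low FPKMs (95.2% of 938 values in WT and 94.9% of 1006 in ΔM were whole within 0.15, where 30% would be by uniform spread) and the median transcript length. The search was checked on 3 libraries simulated under its own model for genes with 1 transcript. This cannot check how fragments were assigned among transcripts or the use of the median length. Intervals were exact for levels (Poisson) and for ratios of single genes (binomial). Those of the MMP sum over the TIMP sum used a normal approximation. Gene types, positions and 3′ UTRs came from GENCODE M1 on mm9, which held 37039 of 37451 identifiers, and sites were matched to its transcripts. Library values were not rescaled. The members and lists were chosen with earlier results of these data known. Named are the members, Zfp36, and from each list the genes at least 2-fold apart and the 3 highest. Others are marked, or named for lying beside a member. Alternatives covered the pseudocount, the minimum level, centring, scaling, transcript length and the genes summed. Python 3.11.15, numpy 2.4.6, pandas 2.3.3, scipy 1.17.1 and matplotlib 3.10.9 were used.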

Additional observations from a re-analysis of the deposited data

How the results depend on the processing

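Of 72 recalculated values, 60 stayed within their counting interval, or within 1.5 times for counts, and 12 moved. The direction of single ratios was not put to a test. A pseudocount added to both values cannot turn it, and centring and scaling were too small to do so. The quotient stayed lower in ΔM than in WT, but the median log2 ratio changed sign with the minimum level. With a pseudocount of 0.1 FPKM, 1 member was 2-fold higher in ΔM (Mmp19, log2 ratio 1.01) and 2 were 1.5-fold higher (2 also with 0.5 FPKM), and Timp3 moved to -1.74 (-0.62 with 0.5 FPKM). With a minimum mean of 10 FPKM the median log2 ratio of the members was -0.125, with no filter it was -0.06, and 0 were 1.5-fold higher at that minimum. Since the median of 8 genes lies between the higher and the lower ones, its sign carries no call. Weighted by transcript length, the MMP sum was 5.48 times the TIMP sum in WT and 4.6 times in ΔM, and without Mmp12 it was 1.75 and 1.6 times. Centring and scaling changed the log2 ratios by less than 0.01. The counting interval of a member spanned 9.63% of its level in WT and 10.7% in ΔM at the median, and for Mmp9 and Timp3 depth limits any statement. No paired analysis was possible because each genotype has a single library, and for the same reason none could be left out.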
